A study of Homo sapiens with 4 samples.

Results

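The strongest ChIP-seq signals of 2 basic helix-loop-helix (bHLH) transcription factors were examined in cells of DU145, an established line from a human prostate cancer. The peaks were chosen by the authors' own score, which had to be 200 or more, on any sequence of the genome, unplaced contigs included. Among the peaks held here, this rule kept 230 of 4997 ATOH8 peaks and 391 of 11390 TCF3 peaks, so 621 of 16387 in all. Since the score chose these peaks, their high scores are a description and were not tested.

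The study recovered chromatin bound by Flag-tagged ATOH8 and by Myc-tagged TCF3, each beside an input of the same cells. There were 4 libraries, 1 for each group: the ATOH8 Flag ChIP, its input, the TCF3 Myc ChIP and its input. All were made from DU145 cells fixed with 1% formaldehyde for 10 min. One peak list was held for each ChIP, the inputs were not analysed here, and with 1 library per group no value below has a replicate error.

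bHLH factors bind as pairs to short DNA words called E-boxes. TCF3 encodes the E proteins E12 and E47, common partners of tissue-restricted bHLH factors, and ATOH8 is a distant relative of the fly factor atonal. Ribosomal DNA and the repeats around centromeres exist in many near-identical copies, of which a genome assembly holds only some, so a read from them cannot always be placed at one copy.

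Promoters that lay wholly inside a high-scoring peak show what sequence such a peak held at a gene. They come from RefSeq (GRCh38.p14) and run from 250 bases before to 50 after a start site, 5′ to 3′ on the gene's strand, with every E-box of the form CANNTG in capitals. The 4 ATOH8 peaks with the highest scores that held such a window are shown. EXOC6, which encodes a subunit of the vesicle-tethering exocyst, had a score of 1430 (chr10:92848270-92848569, plus strand). ENTPD8, an enzyme gene of extracellular nucleotide breakdown, had 1273 (chr9:137441308-137441607, minus strand). CCNJ, a cyclin gene, had 1095 (chr10:96043333-96043632, plus strand). KLF4, which encodes a zinc finger factor of epithelial differentiation and reprogramming, had 1021 (chr9:107489720-107490019, minus strand).
EXOC6: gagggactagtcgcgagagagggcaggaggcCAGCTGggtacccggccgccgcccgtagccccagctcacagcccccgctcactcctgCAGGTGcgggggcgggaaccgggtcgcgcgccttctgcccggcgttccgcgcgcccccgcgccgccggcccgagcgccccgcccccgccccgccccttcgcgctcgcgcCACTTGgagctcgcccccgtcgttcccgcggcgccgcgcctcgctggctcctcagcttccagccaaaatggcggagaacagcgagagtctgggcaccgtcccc
ENTPD8: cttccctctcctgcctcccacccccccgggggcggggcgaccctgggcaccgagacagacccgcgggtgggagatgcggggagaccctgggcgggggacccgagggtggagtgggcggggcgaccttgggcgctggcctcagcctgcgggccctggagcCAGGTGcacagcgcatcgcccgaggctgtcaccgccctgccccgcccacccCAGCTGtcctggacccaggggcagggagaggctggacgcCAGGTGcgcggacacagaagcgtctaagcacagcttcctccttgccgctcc
CCNJ: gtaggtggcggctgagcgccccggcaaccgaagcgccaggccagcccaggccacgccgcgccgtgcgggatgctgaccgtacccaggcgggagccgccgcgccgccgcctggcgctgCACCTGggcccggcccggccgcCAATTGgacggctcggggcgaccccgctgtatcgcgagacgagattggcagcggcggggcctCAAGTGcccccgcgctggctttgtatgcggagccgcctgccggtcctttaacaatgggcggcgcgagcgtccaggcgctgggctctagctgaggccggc
KLF4: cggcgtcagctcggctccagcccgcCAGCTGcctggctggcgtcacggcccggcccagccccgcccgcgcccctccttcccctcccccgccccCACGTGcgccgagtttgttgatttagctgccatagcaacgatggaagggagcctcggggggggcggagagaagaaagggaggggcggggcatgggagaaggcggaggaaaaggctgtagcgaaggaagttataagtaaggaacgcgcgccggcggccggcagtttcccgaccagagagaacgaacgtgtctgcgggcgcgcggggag

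EXOC6, ENTPD8 and CCNJ held 3 E-boxes each and KLF4 held 2, and their GC content ran from 69% in KLF4 to 77% in EXOC6. The highest TCF3 scores at such windows were ties at 280, of which the first 4 listed are shown. They belong to SCGN, a calcium-binding protein gene (chr6:25651965-25652264, plus strand), RUNX2, the gene of a bone-forming transcription factor (chr6:45422025-45422324, plus strand), ADCYAP1, a neuropeptide gene (chr18:905116-905415, plus strand), and NKX2-8, a homeobox gene (chr14:36582565-36582864, minus strand).
SCGN: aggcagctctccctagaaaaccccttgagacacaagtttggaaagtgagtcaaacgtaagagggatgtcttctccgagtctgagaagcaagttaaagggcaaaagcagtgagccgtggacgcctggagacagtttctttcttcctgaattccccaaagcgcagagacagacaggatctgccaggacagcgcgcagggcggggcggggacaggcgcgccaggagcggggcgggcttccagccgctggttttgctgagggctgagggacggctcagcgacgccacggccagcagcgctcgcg
RUNX2: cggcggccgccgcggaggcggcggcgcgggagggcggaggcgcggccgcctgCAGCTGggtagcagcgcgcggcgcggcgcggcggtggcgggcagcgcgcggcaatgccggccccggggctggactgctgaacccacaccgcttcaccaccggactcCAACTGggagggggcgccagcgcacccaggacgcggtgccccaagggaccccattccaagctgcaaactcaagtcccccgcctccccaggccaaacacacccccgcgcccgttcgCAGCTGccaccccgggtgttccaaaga
ADCYAP1: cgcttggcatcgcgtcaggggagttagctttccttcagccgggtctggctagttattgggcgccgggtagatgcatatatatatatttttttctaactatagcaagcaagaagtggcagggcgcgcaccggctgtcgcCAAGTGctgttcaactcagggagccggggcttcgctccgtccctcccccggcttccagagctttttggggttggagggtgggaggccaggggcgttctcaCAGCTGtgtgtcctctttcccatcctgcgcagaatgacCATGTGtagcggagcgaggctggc
NKX2-8: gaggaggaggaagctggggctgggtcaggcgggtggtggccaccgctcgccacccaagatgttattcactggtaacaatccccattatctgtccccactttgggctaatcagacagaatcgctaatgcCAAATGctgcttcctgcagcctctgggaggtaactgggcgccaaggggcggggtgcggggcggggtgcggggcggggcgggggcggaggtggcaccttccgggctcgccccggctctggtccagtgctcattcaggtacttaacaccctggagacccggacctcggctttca

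SCGN held no E-box of this form, RUNX2 and ADCYAP1 held 3 each and NKX2-8 held 1. Across all peaks with a score of 200 or more, 93 ATOH8 peaks held 116 promoter windows of 105 genes, and 107 TCF3 peaks held 152 windows of 129 genes.

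As held here, both lists had a short, steep head and a long, flat tail. In the ATOH8 list 22 peaks scored between 996 and 8846, and the other 208 scored 356 or less, with none held between 280 and 326. In the TCF3 list 31 peaks scored between 887 and 19871, and the other 360 scored 280 or less. The median score was 265 among the 230 ATOH8 peaks, against 80 among the 4767 ATOH8 peaks under the threshold, and 227 among the 391 TCF3 peaks, against 61 among the 10999 under it. Each list was held in part, and peaks in the score ranges between these steps were not analysed here. The steps therefore describe only the peaks held. A split at 800, set after the scores were seen, is used below for the head of each list.

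**Figure D1:**
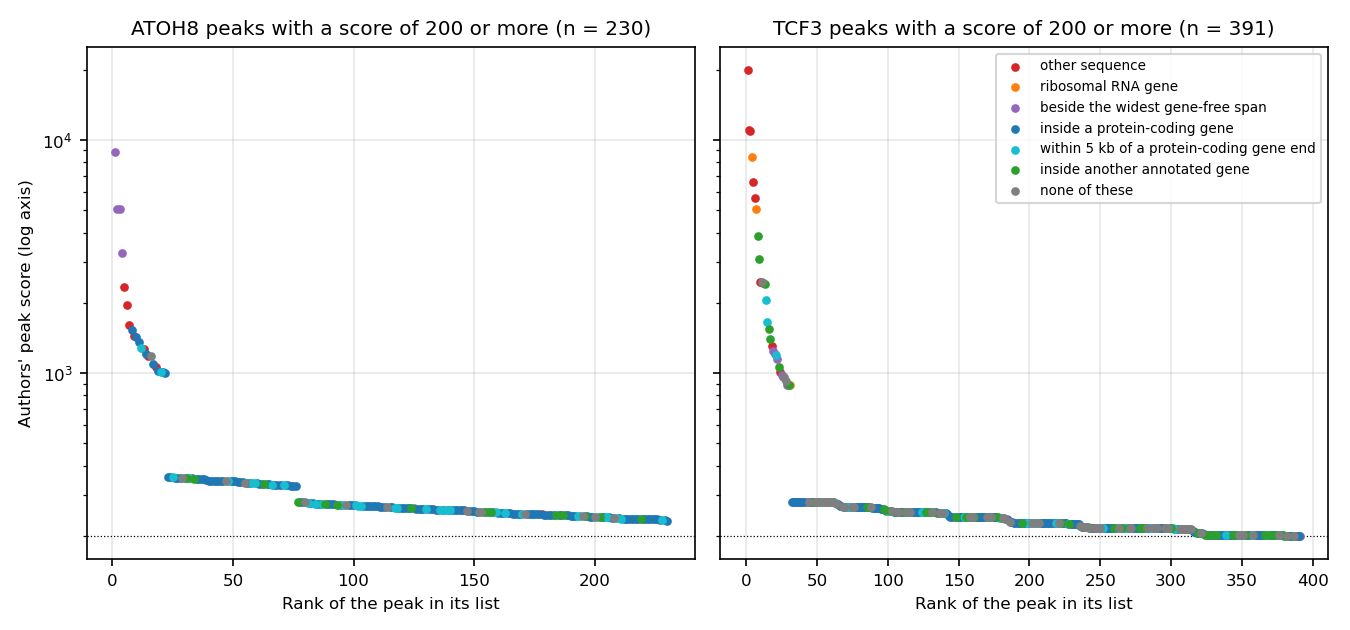
Authors' peak score (log axis) by rank for the 230 ATOH8 peaks (left) and the 391 TCF3 peaks (right) of score 200 or more, one point per peak, coloured by where the peak lies, with the threshold as a dotted line. As held here, both lists drop in a step, to 356 or less after rank 22 for ATOH8 and to 280 or less after rank 31 for TCF3. Peaks in the score ranges between were not analysed.

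Few values separated the peaks at the foot of the TCF3 list. The 391 TCF3 peaks shared 77 distinct scores, with 58 peaks at 215 and 52 at 202, while the 230 ATOH8 peaks had 88 distinct scores. The last TCF3 peaks listed above the threshold, 3 of 12 tied at 200, lay inside HMGXB3, inside OSBPL2 and next to the pseudogene NBEAP1. Those just under it lay inside GAGE12B (199), inside CETN1 (197) and near PAIP1P2 (195). For ATOH8 the lowest peaks kept lay near SLC29A1 (234), inside AFF4 (233) and inside DSG2 (232). The next listed lay inside MINPP1 (189), near ZNF767P (188) and inside RHPN1 (188). No ATOH8 peak with a score between 189 and 232 was analysed here.

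High-scoring peaks were wider. In the ATOH8 list they measured 1030 bp at the median, against 695 bp for lower-scoring peaks, and in the TCF3 list 1303 bp, against 706 bp. A wider peak has more room to overlap a gene or another peak, and the part of width in the shares below was not tested.

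Each peak was put in 1 class, the first that held it in this order: sequences other than chromosomes 1 to 22, X and Y; ribosomal RNA genes; the neighbourhood of the widest gene-free span of its chromosome; protein-coding gene bodies; their flanks of 5 kb; other annotated genes; none of these. The gene-free span stands in for the pericentromere, since no centromere or repeat annotation was used here. On chromosomes 13, 14, 15, 21 and 22 it starts at the first base and need not reach the centromere.

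In the ATOH8 list the classes of high-scoring peaks were close to those of other peaks, apart from the first class. Of 230 peaks, 150 lay inside a protein-coding gene (65.2%, Wilson 95% interval 58.9 to 71.1%), against 70.8% of the other ATOH8 peaks. A further 33 lay within 5 kb of such a gene (14.3%, against 15.9%), 14 inside another annotated gene (6.09%, against 4.30%) and 14 in none of the classes (6.09%, against 5.92%). Unplaced sequences held 10 (4.35%, interval 2.38 to 7.82%), against 33 of 4767 other peaks (0.692%).

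In the TCF3 list fewer high-scoring peaks lay in protein-coding genes and more lay beside gene-free spans. Of 391 peaks, 167 lay inside a protein-coding gene (42.7%, interval 37.9 to 47.7%), against 54.8% of the other TCF3 peaks. Beside the widest gene-free span lay 57 (14.6%, interval 11.4 to 18.4%), against 5.57%. Other annotated genes held 55 (14.1%, against 16.2%), the flanks of protein-coding genes 33 (8.44%, against 8.75%), and 65 were in no class (16.6%, against 14.5%). Unplaced sequences held 10 (2.56%, against 0.0546%) and ribosomal RNA genes 4 (1.02%, against 0.182%). Intervals cover the counting of peaks only, and read depth is unknown.

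**Figure D2:**
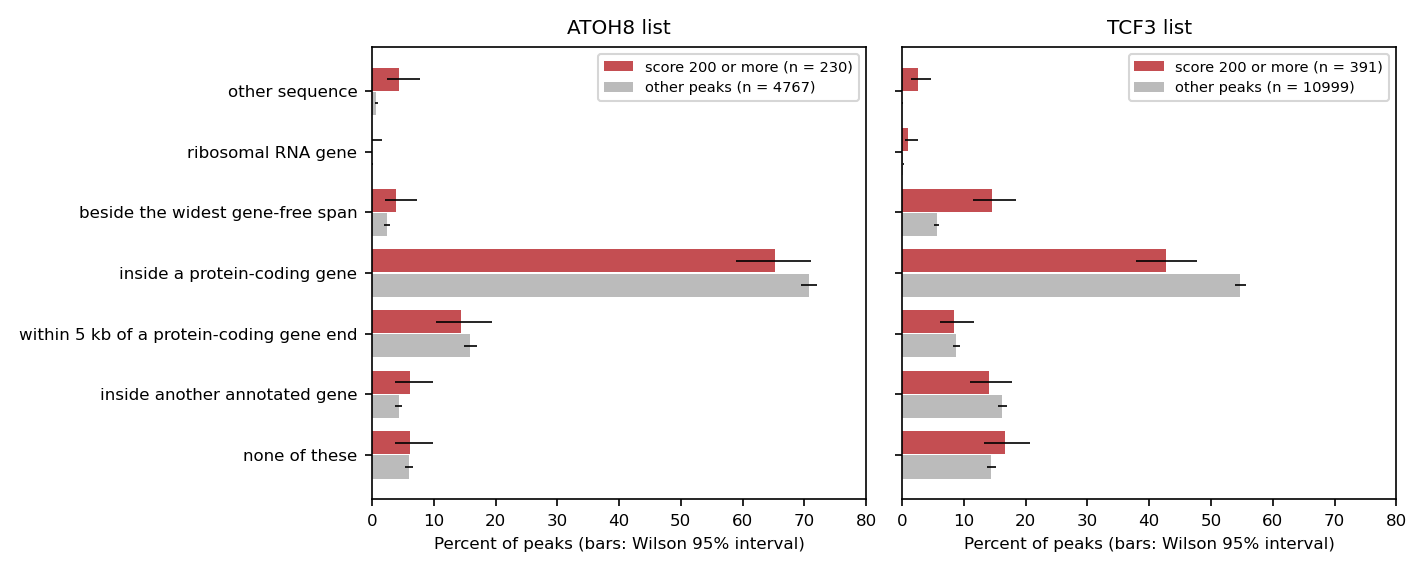
Percent of peaks in each class for the ATOH8 list (left) and the TCF3 list (right), with peaks of score 200 or more in red above the other peaks in grey; error bars are Wilson 95% intervals. The red bar beside the widest gene-free span reaches 14.6% in the TCF3 list, against 5.57% for grey, while the ATOH8 bars for genic classes lie near each other.

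The head of the TCF3 list was led by ribosomal DNA. The 45S gene makes the precursor of the 18S, 5.8S and 28S ribosomal RNAs, and its copies stand in arrays on the short arms of the acrocentric chromosomes. Over the whole TCF3 list 0.211% of peaks overlapped an annotated ribosomal RNA gene or 5S pseudogene, and 4 of the 391 high-scoring peaks did. Of these, 3 lay in 45S units on chromosome 21, 2 in RNA45SN2 (scores 8401 and 887) and 1 in RNA45SN3 (5032). The fourth, at 227, overlapped the 5S pseudogene RNA5SP359 on chromosome 12. Within 5 kb of such a gene or pseudogene lay 1.53% of the 391, among them a peak of 2447 that lay 431 bp from RNA5SP19. All 9 TCF3 peaks listed on the scaffold KI270733.1 scored 1004 or more, and the top of the list, 19871, was among them. Counted with that scaffold, 12 of the 31 TCF3 peaks of score 800 or more lay at ribosomal DNA, without the peak near RNA5SP19.

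The annotation table does not name the scaffolds, so RNA45SN4 and the partial unit at RNA18SP4 were placed on KI270733.1, and RNA45SN5 on GL000220.1, from background knowledge of the assembly. On that placement most TCF3 peaks lay between the stretch before the 18S gene and the earlier part of the 28S gene. In RNA45SN4 they ran from -3159 to -2551 (score 2460), from -2034 to 106 (19871), from 1579 to 3227 (6586) and from 3600 to 4498 bp (10948) of the start of 18S. In the RNA18SP4 unit they ran from -3305 to 168 (2421), from 1624 to 3225 (10973) and from 3727 to 4594 bp (5606), with 2 further upstream (1298 and 1004). On chromosome 21 they ran from -1496 to -459 (8401) and from 4770 to 5589 bp (887) in RNA45SN2, and from 3471 to 4405 bp (5032) in RNA45SN3.

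The high-scoring ATOH8 peaks at ribosomal DNA lay elsewhere in the unit. Over the whole ATOH8 list 0.0600% of peaks overlapped an annotated ribosomal RNA gene on a chromosome, and 0 of the 230 high-scoring peaks did (interval 0 to 1.64%). Within 5 kb of such a gene or 5S pseudogene lay 0.870% of the 230, among them a peak of 253 that lay 772 bp from RNA5S6. On the scaffolds, 1 peak lay near the end of the 28S gene of RNA45SN4, from 8971 to 9313 bp of the start of 18S (score 1441). Another began 2475 bp past the end of that 45S gene (247), and on GL000220.1 a peak began 894 bp past the end of RNA45SN5 (1605). None of these 3 shared a base with a TCF3 peak. The 1 high-scoring TCF3 peak of KI270733.1 that met an ATOH8 peak, at the RNA18SP4 unit, met one of score 99. On chromosome 21 the TCF3 peak of 887 in RNA45SN2 overlapped an ATOH8 peak of 105, which is under the threshold. Copies of the unit are near identical, so the copy named is uncertain.

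**Figure D3:**
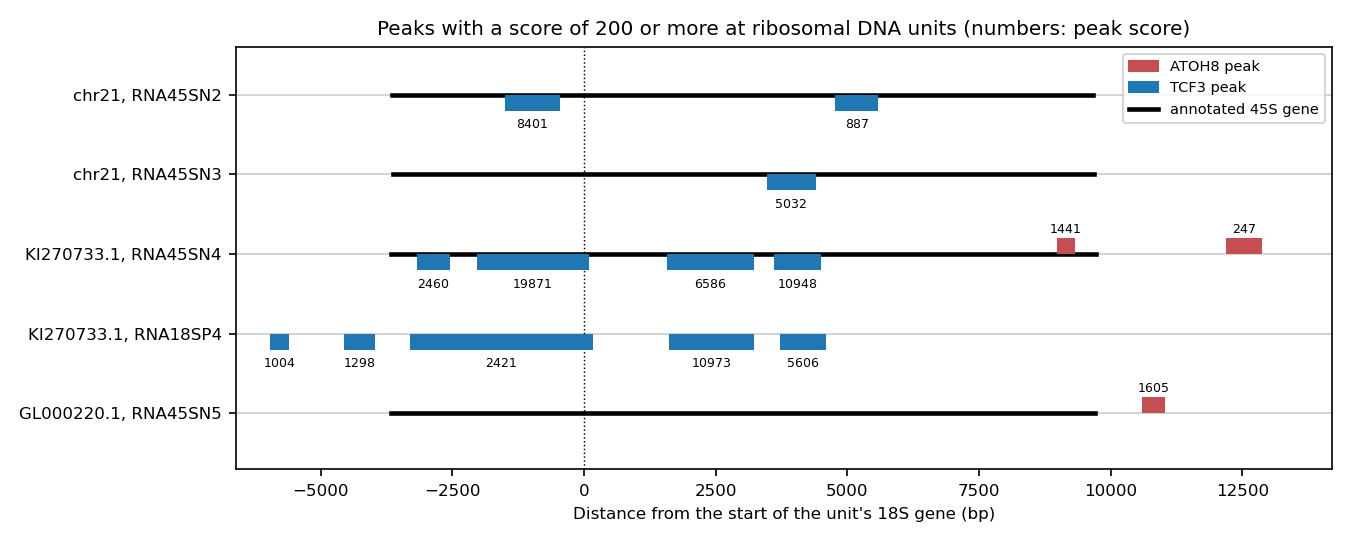
Position of peaks of score 200 or more in 5 ribosomal DNA units, in bp from the start of the unit's 18S gene (dotted line), with ATOH8 peaks in red, TCF3 peaks in blue, the peak score beside each and the annotated 45S gene as a black line. TCF3 peaks lie between -5955 and 5589 bp, and the 3 ATOH8 peaks start at 8971 bp or beyond.

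The 4 highest ATOH8 peaks stood together on chromosome 16. These peaks, with scores of 8846, 5041, 5024 and 3253, and 1 more with 262, fell between 46386127 and 46398970. This is inside the widest gene-free span of the chromosome, 70367 to 81034 bp from the pseudogene ANKRD26P1 for the 4 highest. No TCF3 peak overlapped any of the 5. The next 2 scores, 2330 and 1952, lay on the scaffolds KI270438.1 and KI270709.1. KI270438.1 held 1 more peak of 200 or more (1061), and KI270709.1 held 3 more (1265, 1186 and 246). All ATOH8 peaks listed on these 2 sequences were high-scoring ones, 2 of 2 and 4 of 4, and genes on them were not looked up, since the annotation used here does not name such sequences. One more peak, of 245, lay on KI270744.1.

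Beside gene-free spans the lists differed in how many peaks they held. All ATOH8 peaks on chromosomes lay there in 2.48% of cases, and 9 of 220 high-scoring ones did (4.09%, interval 2.17 to 7.59%), 5 of which were the cluster on chromosome 16. The other 4 lay near ANKRD20A5P (331), near LOC107986999 (329), at CEBPD, the gene of a stress-induced leucine zipper factor (273), and at MRPS30, a mitochondrial ribosomal protein gene (259). All TCF3 peaks lay there in 5.97% of cases, and 58 of 381 high-scoring ones did (15.2%, interval 12.0 to 19.2%), against 5.65% of the other TCF3 peaks. Without the peaks of 800 or more the share was 2.44% for ATOH8 and 14.5% for TCF3, and with 1 peak per locus it was 2.35% for ATOH8 and 14.8% for TCF3. The 4 ATOH8 peaks that this score limit removes from the spans were the highest of the chromosome 16 cluster.

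The highest TCF3 peaks beside a gene-free span lay on chromosome 15. They stood at the non-coding RNA gene LOC124900633 (1238) and the pseudogenes BCAR1P1 (1209) and CHEK2P2 (1152), with LOC646071 (976) and LOC124903442 (963) after them. On chromosome 22 the pseudogene FRG1FP had 889. Further high peaks lay 2619775 to 3643700 bp past the span of chromosome 14, at the pseudogenes TOMM40P1 (3876), GRAMD4P3 (2416), DUXAP10 (1545), LOC100422529 (1404) and LOC100422528 (1061). These places were not counted as beside the span.

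Pseudogenes recurred across the TCF3 list. High-scoring TCF3 peaks overlapped one in 105 of 381 cases (27.6%, interval 23.3 to 32.3%), against 13.6% of the other TCF3 peaks. High-scoring ATOH8 peaks did so in 10 of 220 cases (4.55%, interval 2.49 to 8.16%), against 2.62% of the other ATOH8 peaks. Pseudogenes are gene copies that have lost their function, and many belong to duplicated stretches, so the copy named here is uncertain. On chromosome 22 the pseudogenes LOC124905151 (3091) and TOMM40P2 (889) had TCF3 peaks, and on chromosome 1 a TCF3 peak of 2447 lay 431 bp from RNA5SP19.

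Multi-copy gene families met high-scoring TCF3 peaks through few peaks each. For comparison, 1.20% of the 19866 protein-coding genes had an ATOH8 peak of 200 or more inside or within 5 kb, and 1.18% such a TCF3 peak. Of 14 TAF11L genes, copies related to a subunit of the general factor TFIID, 5 (35.7%) had a TCF3 peak of 200 or more within 5 kb, from 3 distinct peaks on chromosome 5 (2062, 1650 and 1190), and none had such an ATOH8 peak. POTE genes had one in 2 of 16 cases (12.5%, POTED with 227 and POTEB3 with 202) and olfactory receptor genes and pseudogenes in 8 of 872 (0.917%), from 5 peaks. No gene of either family had an ATOH8 peak of 200 or more. TCF3 peaks of any score lay at 11 of the 14 TAF11L genes (78.6%) and 10 of the 16 POTE genes (62.5%). They lay at 143 of the 872 olfactory receptor genes and pseudogenes (16.4%), against 33.0% of all protein-coding genes. ATOH8 peaks of 200 or more lay at 5 of 503 tRNA genes (0.994%), all from a single peak of 258 that was also the one at HES7, and at RNA5S5 to RNA5S8 from a single peak of 253. The olfactory receptor and tRNA shares were below that of protein-coding genes.

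By chromosome, TCF3 peaks of 200 or more were unevenly spread. Chromosome 14 held 43 of 391 (11.0%, against 6.43% of the other TCF3 peaks), chromosome 5 held 40 (10.2%, against 7.27%), chromosome 15 held 31 (7.93%, against 4.67%) and chromosome 18 held 24 (6.14%, against 2.68%). Chromosome 17 held 5 (1.28%, against 5.19%), chromosome 10 held 3 (0.767%, against 5.03%) and chromosome 20 held 3 (0.767%, against 3.25%). The largest ATOH8 share was on chromosome 1, with 19 of 230 peaks (8.26%, against 9.08% of the other ATOH8 peaks). Most peaks stood alone. Joined within 10 kb, the 230 ATOH8 peaks made 218 loci, of which 7 held 19 peaks together, and the 391 TCF3 peaks made 375, of which 11 held 27. The fullest locus of either factor held 5 peaks.

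**Figure D4:**
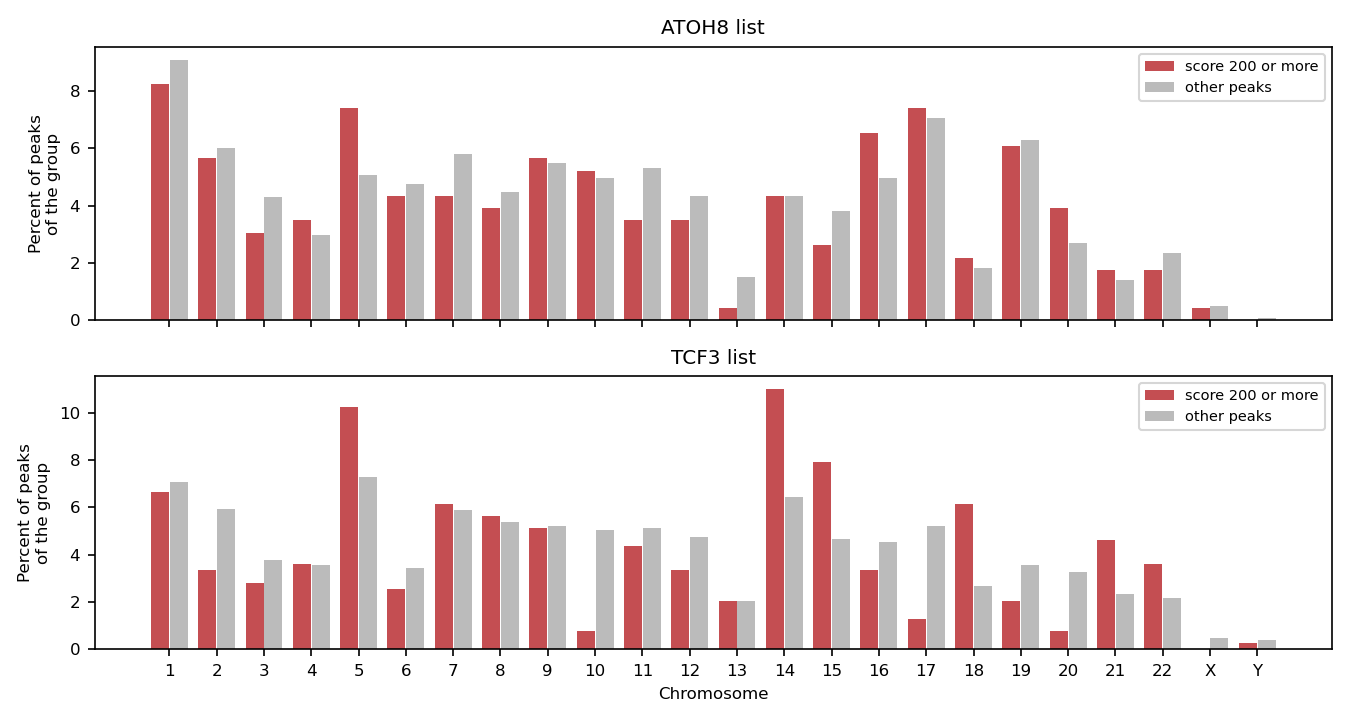
Percent of the peaks of a group on each chromosome for the ATOH8 list (top) and the TCF3 list (bottom), with peaks of score 200 or more in red left of the other peaks in grey. In the TCF3 list the red bar of chromosome 14 reaches 11.0%, against 6.43% for grey.

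Fewer of the highest ATOH8 peaks than of the lower ones lay inside protein-coding genes, 8 of 22 at 800 or more (36.4%), against 142 of 208 under 800 (68.3%). DMPK, the gene of a muscle kinase altered in myotonic dystrophy, held a peak of 1530, and its neighbour SIX5, a homeobox gene, held one of 1005 in the same locus. PRR36 held a peak of 1353, MRPL34, a mitochondrial ribosomal protein gene, 1202, and PARP16, the gene of an ADP-ribosyltransferase of the endoplasmic reticulum, 996. MIR210HG, the host gene of the hypoxia-induced miR-210, held one of 1005, and one of 1180 lay 347 bp from the pseudogene AMZ2P1. Outside the class inside protein-coding genes, 7 ATOH8 peaks of 800 or more lay on scaffolds and 4 beside a gene-free span. Another 2, that at MIR210HG among them, lay within 5 kb of a protein-coding gene, and 1, that near AMZ2P1, was in no class.

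None of the 31 TCF3 peaks of 800 or more was in the class inside a protein-coding gene, and the 1 peak that lay in such a gene, LOC124903442, counted as beside the span of chromosome 15. Below 800, 167 of 360 were inside a protein-coding gene (46.4%). The highest were ties at 280, a score shared by 24 TCF3 peaks of all classes, and the first listed lay inside SCGN, RUNX2, ADCYAP1, ADAMTS5, the gene of a cartilage-degrading protease, and NKX2-8. In the flanks of protein-coding genes, the first listed after the 3 peaks at TAF11L genes was that of GABRG3, a GABA receptor subunit gene (280).

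High-scoring ATOH8 peaks lay near protein-coding gene ends about as often as the rest of their list. All ATOH8 peaks had a midpoint within 5 kb of such an end in 76.4% of cases, and high-scoring ones in 164 of 220 (74.5%, interval 68.4 to 79.8%), against 76.5% of the other ATOH8 peaks. All TCF3 peaks did in 48.7%, and high-scoring ones in 171 of 381 (44.9%, interval 40.0 to 49.9%), against 48.8% of the other TCF3 peaks. The median distance was 649.5 bp for high-scoring ATOH8 peaks, against 470 bp for the other ATOH8 peaks, and 11921 bp for high-scoring TCF3 peaks, against 5852 bp for the other TCF3 peaks. Within 1 kb lay 33.6% of high-scoring and 33.5% of other TCF3 peaks, and within 100 kb 70.1% of high-scoring and 78.0% of other TCF3 peaks.

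**Figure D5:**
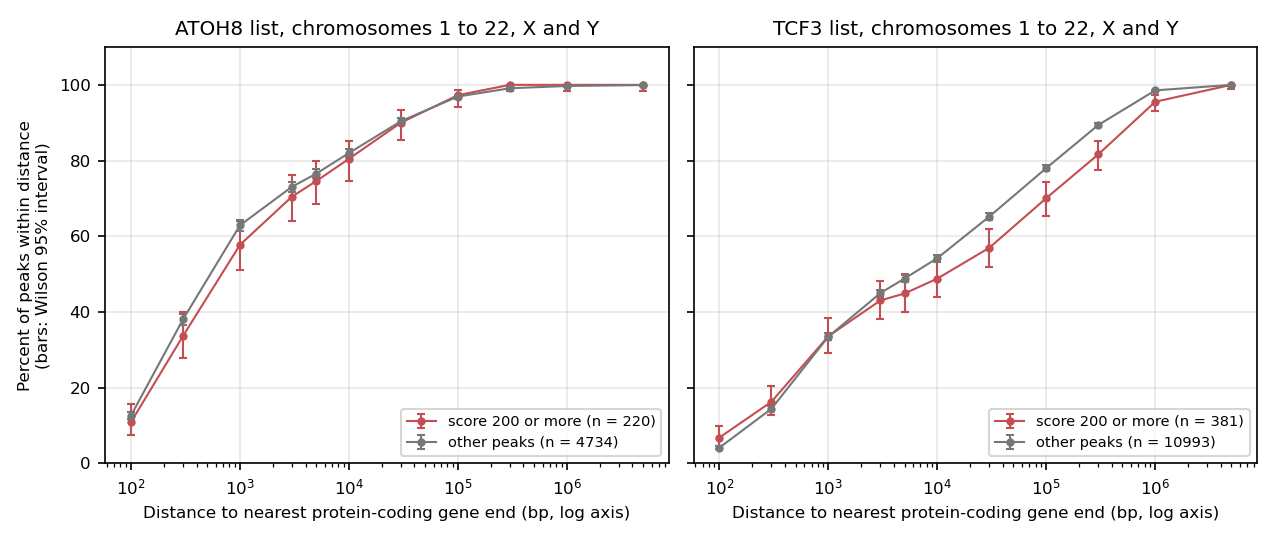
Percent of peaks whose midpoint lies within a given distance (bp, log axis) of the nearest protein-coding gene end, for peaks of score 200 or more (red) and other peaks (grey) of the ATOH8 list (left) and the TCF3 list (right); bars are Wilson 95% intervals. The TCF3 curves meet at 1 kb (red 33.6%, grey 33.5%) and stand apart at 100 kb (red 70.1%, grey 78.0%).

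Gene lists chosen for this study's subject had a high-scoring peak of a factor at 0 or 1 gene. The exception was ATOH8 at ID, HES and HEY genes. Beside the 1.20% and 1.18% of protein-coding genes with such a peak of ATOH8 and of TCF3, 25.2% had any ATOH8 peak and 33.0% any TCF3 peak. Lists of 17 to 33 genes are too short to set a count of 0 or 1 apart from the 1.20% and 1.18%. Of 17 ID, HES and HEY genes, which encode inhibitors and repressors of the bHLH class, 3 (17.6%) had such an ATOH8 peak: ID1 (329), HES1 (277) and HES7 (258). This share is above the 1.20% of all protein-coding genes, rests on 3 genes and was not tested. ID4 was the 1 of the 17 with such a TCF3 peak (202). Of 22 housekeeping genes, 1 had an ATOH8 peak of this score, HSP90AB1 (341), and 1 a TCF3 peak, ACTB (202).

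For TCF3, 1 of 23 hypoxia genes, VEGFA, the angiogenic growth factor gene (240), and 1 of 17 BMP and SMAD genes, the receptor gene BMPR1A (240), had such a peak, and no gene of either list had such an ATOH8 peak. No such peak of either factor lay at any of 28 E protein and bHLH activator genes, 33 genes of fatty acid and sterol synthesis, 25 ferroptosis suppressors or 22 ferroptosis promoters. SCD, the desaturase gene of the series' title, had an ATOH8 peak of 65 as its highest and no listed TCF3 peak. The ATOH8 gene had an ATOH8 peak of 80 and no TCF3 peak, and the TCF3 gene had peaks of 102 (ATOH8) and 47 (TCF3). Counting peaks of any score, ATOH8 then TCF3 peaks lay at 6 and 18 of the 28 activator genes and 16 and 14 of the 33 synthesis genes. They lay at 14 and 10 of the 25 ferroptosis suppressors and 8 and 8 of the 22 ferroptosis promoters. The counts were 13 and 9 of the 23 hypoxia genes and 7 and 14 of the 17 BMP and SMAD genes. For the 22 housekeeping genes they were 10 and 9, and for the 17 ID, HES and HEY genes 9 and 9.

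Among peaks of 200 or more, developmental families, added after a look at the lists, were met mostly by TCF3 peaks of 202 to 280. Of 170 homeobox genes 4 had one (2.35%, NKX2-8 with 280, ISL1 with 240, PITX1 and POU2F1 with 202). An ATOH8 peak of 200 or more lay at 3 of them (1.76%, SIX5 with 1005, POU6F1 with 270 and OTX1 with 258). Of 52 forkhead symbols 6 (11.5%) had a TCF3 peak of 200 or more, from 5 peaks led by FOXD4L3 (278). FOXL2NB, the neighbour gene of FOXL2 and matched by symbol alone, is among the 6 through the peak of FOXL2 (240). No forkhead symbol had an ATOH8 peak of that score. A TCF3 peak of this score lay at 1 of 6 GATA genes, GATA6, a factor of heart and gut (240), at 1 of 17 T-box genes, TBX5, a factor of heart and limb (240), and at 1 of 19 SOX genes, SOX11, a neural factor (253). These are single genes, beside the 1.18% of all protein-coding genes with such a peak. Of 66 protocadherin genes, neuronal adhesion genes, 17 (25.8%) had a TCF3 peak of this score. These 17 came from only 3 peaks, that at PCDH7 (264) and those of 253 and 207 in the gamma cluster, whose gene bodies lie inside one another. TCF3 peaks of any score lay at 74.7% of homeobox, 71.2% of forkhead, 84.2% of SOX and 76.5% of T-box genes. They lay at 66.7% of GATA and 87.9% of protocadherin genes, against 33.0% of all protein-coding genes. Contact with these families was thus not particular to high-scoring TCF3 peaks.

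Overlap with the other factor was counted for each list. All ATOH8 peaks shared at least 1 base with a TCF3 peak in 28.5% of cases, and high-scoring ones in 70 of 230 (30.4%, interval 24.8 to 36.7%), against 28.4% of the other ATOH8 peaks. In the TCF3 list 12.4% of all peaks overlapped an ATOH8 peak, and of the high-scoring ones 64 of 391 did (16.4%, interval 13.0 to 20.4%), against 12.3% of the other TCF3 peaks. Peaks of 200 or more of the other factor were met by 3 of 230 high-scoring ATOH8 peaks (1.30%, against 1.34% of the other ATOH8 peaks) and by 3 of 391 high-scoring TCF3 peaks (0.767%, against 0.627% of the other TCF3 peaks). Such places included AKAP1, a protein kinase A anchor gene (273 for ATOH8 and 202 for TCF3, 1089 bp shared) and the pseudogene LOC107986999 (329 for ATOH8 and 215 for TCF3, 954 bp). CECR2, a chromatin remodelling gene, had a high-scoring peak of each factor as well (355 for ATOH8 and 207 for TCF3), without an overlap.

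The head of the TCF3 list met ATOH8 peaks more often than its tail. Of the 31 TCF3 peaks of 800 or more, 12 overlapped an ATOH8 peak (38.7%, interval 23.7 to 56.2%), against 52 of the 360 lower ones (14.4%, interval 11.2 to 18.5%). The ATOH8 peaks they met scored from 51 at BNIP3P1 to 184 near RNA5SP19, with 171 at TOMM40P1, and none was itself high-scoring. The 31 peaks were also wider, with a median of 1698 bp, against 1283 bp among the 360. In the ATOH8 list 4 of the 22 peaks of 800 or more overlapped a TCF3 peak, against 66 of the 208 lower ones. The TCF3 peaks they met scored 58 at PRR36, 70 at CCNJ, 99 at KLF4 and 57 at SIX5.

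The promoter windows inside peaks were searched on both strands for the E-box CANNTG. Its forms CAGCTG and CATCTG, and as further forms of the same E-box CACGTG and CAGGTG, were counted both alone and within it. The GC box GGGCGG was searched as well. CAGGTG stood in 47.4% of the 116 windows in high-scoring ATOH8 peaks (interval 38.6 to 56.4%), in 30.2% of the 1687 windows in other ATOH8 peaks and in 20.6% of all 35097 windows searched. The 116 windows came from 93 peaks, and the intervals count each window as separate. CACGTG stood in 19.0% of windows in high-scoring ATOH8 peaks, 10.8% in other ATOH8 peaks and 7.25% of all windows. For CAGCTG the shares were 31.0% in high-scoring ATOH8 peaks, 25.6% in other ATOH8 peaks and 17.9% of all windows. For CATCTG they were 6.03% in high-scoring ATOH8 peaks, 7.47% in other ATOH8 peaks and 14.7% of all windows. CANNTG as a whole stood in 73.3% of windows in high-scoring ATOH8 peaks, 65.6% in other ATOH8 peaks and 68.7% of all windows. EXOC6 and ENTPD8, printed above, hold CAGGTG, CCNJ holds its reverse complement and KLF4 holds CACGTG.

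Windows in high-scoring TCF3 peaks gave other values. CAGGTG stood in 15.8% of the 152 windows, from 107 peaks (interval 10.8 to 22.4%, each window counted as separate). It stood in 21.9% of the 1942 windows in other TCF3 peaks and in 20.6% of all windows. CANNTG stood in 52.6% of windows in high-scoring and 55.9% in other TCF3 peaks, and CAGCTG in 17.8% in high-scoring and 16.2% in other TCF3 peaks. CACGTG stood in 11.8% in high-scoring and 8.86% in other TCF3 peaks, and CATCTG in 4.61% in high-scoring and 7.36% in other TCF3 peaks. GGGCGG stood in 88.8% of windows in high-scoring and 86.2% in other ATOH8 peaks, in 74.3% in high-scoring and 77.2% in other TCF3 peaks, and in 44.9% of all windows. The median GC content was 73.7% in high-scoring and 72.7% in other ATOH8 peaks, 71.5% in high-scoring and 73.0% in other TCF3 peaks, and 58.7% over all windows. Base composition sets how often such words occur, and its part was not tested. A match describes the letters of these windows and says nothing of binding.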

How the data were processed

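Peak lists of 2 ChIP libraries from DU145 cells were analysed. The peak score is the authors' own deposited value, used only within a list. Not given in the sources used here are the aligner, peak caller, threshold, score definition and use of the inputs. The build is hg38, per the submitters' processing notes, and coordinates are given as listed, with no statement of whether they count from 0 or 1. Only part of each list was at hand: 3 ATOH8 lines and 5 TCF3 lines named no peak and were left out.

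Gene positions came from RefSeq (GRCh38.p14), with 58961 genes on chromosomes 1 to 22, X and Y. It gave no exons, introns or untranslated regions, and 831 rows of other sequences were left out. Gene ends were measured from peak midpoints, overlap meant 1 shared bp, and the neighbourhood of a gene-free span reached 2 Mb. Promoter windows covered 15843 of the 19866 protein-coding genes. Shares have Wilson 95% intervals. No test was made, since members were chosen by score and each group has 1 library. The peaks, gene lists and families were chosen with earlier results of these data known. Named genes are the 20 highest peaks per list, the 3 highest per class, overlaps of high-scoring peaks, the peaks nearest the threshold, genes of the lists and the study's genes; others were named after their values were seen. An item that the rule names is not reported here. The scripts were tested on simulated data (Python 3.11.15, numpy 2.4.6, pandas 2.3.3, scipy 1.17.1, matplotlib 3.10.9).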

Additional observations from a re-analysis of the deposited data

How the results depend on the processing

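Of 74 alternatives, 42 left a value inside its interval or its count within 1.5 times, and 32 moved it. A threshold of 150 kept 665 ATOH8 and 939 TCF3 peaks in 646 ATOH8 and 899 TCF3 loci. One of 300 kept 76 ATOH8 and 31 TCF3 peaks in 69 ATOH8 and 22 TCF3 loci. These 31 are the TCF3 peaks of 800 or more, since none between 280 and 887 was analysed here. The TCF3 values at 300 therefore describe that same head. No ATOH8 peak between 280 and 326 was analysed here, so the ATOH8 values at 300 describe the peaks of 326 or more. Median widths were then 906 (ATOH8) and 1134 bp (TCF3) at 150, and 1103.5 (ATOH8) and 1698 bp (TCF3) at 300. At 300 the share beside a gene-free span was 8.70% for ATOH8 and 27.3% for TCF3, and the TCF3 shares were 38.7% overlapping an ATOH8 peak, 13.6% within 5 kb of a gene end and 9.68% at ribosomal RNA genes. At 150 the TCF3 shares were 50.6% at gene ends and 11.3% beside a span. Reciprocal overlap of 50% gave 22.2% for ATOH8 and 8.44% for TCF3, and midpoints within 200 bp gave 19.1% for ATOH8 and 5.88% for TCF3. Gene ends within 1 kb gave 57.7% (ATOH8) and 33.6% (TCF3), within 50 kb 93.2% (ATOH8) and 61.2% (TCF3), and ends of all annotated genes 86.4% (ATOH8) and 88.7% (TCF3). For TCF3 a span of 1 Mb gave 11.0% and one of 5 Mb 26.5%. Counting KI270733.1 and GL000220.1 as ribosomal DNA, chosen after seeing the data, gave 3.32% for TCF3. Leaving out peaks of 800 or more, also chosen after seeing the data, was run as an alternative for the shares overlapping the other list and beside a span, which stayed within their intervals. Under 800 the share at ribosomal RNA genes was 0.278% for TCF3. The share outside chromosomes 1 to 22, X and Y was 1.44% for ATOH8 and 0.278% for TCF3. All these shares were below their intervals. The cause of these shifts was not tested, beyond the fewer or more peaks that each setting keeps.

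No paired analysis was possible because each group had 1 library. Read depth is unknown and the lists were held in part. No repeat annotation, centromere annotation or genome sequence was used here, so peaks in repeats are named through the annotated genes and the sequences they lay on.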
